A study of Mus musculus with 42 samples.

Results

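Chrna4, the gene of the α4 subunit of nicotinic acetylcholine receptors, was examined in liver RNA-seq of wildtype (WT) and ChemR23 knockout (KO) mice. It was 1 of 12742 genes that all 6 deposited comparison tables list, and it was chosen by its lower level in WT obese than in WT lean livers, so every difference between groups that involves those mice is given here as a description of Chrna4 with no test. Those mice do enter tests of how Chrna4 varied with other genes among mice of 1 group, which the choice did not use. They also enter tests of other genes between groups, and the estimate of spread where a fit was made over all 42 libraries. The 42 mice were male, on the C57BL/6J strain, and formed 6 groups of 7 with 1 library per mouse. WT lean and KO lean mice ate a control diet with 10% of its energy as fat, and WT obese and KO obese mice a high fat diet with 60%, both from 6 weeks of age and for 15 weeks. These 4 groups were injected with an ethanol and PBS vehicle. WT obese+RvE1 and KO obese+RvE1 mice ate the high fat diet and were given 300 ng of resolvin E1 (RvE1), a lipid mediator that binds the receptor ChemR23, on 4 days before harvest. The KO line was made by CRISPR/Cas9 editing, its WT controls were littermates, and the whole liver was sampled, so that fewer cells of a type and less RNA per cell cannot be told apart.

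Nicotinic receptors are cation channels in the cell membrane that open when acetylcholine binds. Each is a ring of subunits, and neuronal forms pair α subunits such as α4 with β subunits, the α4 and β2 pair being the best known form of the brain. Acetylcholine is made from choline, a nutrient that the liver also takes up, oxidizes and builds into phosphatidylcholine.

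In the GENCODE M21 annotation of GRCm38, the build also called mm10, Chrna4 (ENSMUSG00000027577) is a protein-coding gene on the minus strand of chromosome 2, from 181018380 to 181043546. Its exons cover 5022 bases, and 0 annotated genes overlap it on either strand. The RefSeq promoter is shown because the results turn on how far the RNA of this 1 gene varied between mice and with genes of a shared pathway. It runs from 250 bases before to 50 bases after the RefSeq start, at chr2:181039128-181039427 of GRCm38.p6 on the minus strand, and its start lies 4369 bases inside the outermost GENCODE gene border. Capitals mark GC boxes, the letters GGGCGG read on either strand.
Chrna4 promoter: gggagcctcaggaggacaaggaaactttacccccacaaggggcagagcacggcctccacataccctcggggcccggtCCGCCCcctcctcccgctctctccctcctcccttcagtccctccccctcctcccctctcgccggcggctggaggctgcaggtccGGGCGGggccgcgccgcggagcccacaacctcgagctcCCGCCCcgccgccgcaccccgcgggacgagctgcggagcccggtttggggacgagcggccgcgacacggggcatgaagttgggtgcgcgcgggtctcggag
This window held 3 GC boxes, starting at -173, -89 and -51 from the RefSeq start. Of 32851 mouse promoters of the same length, 35.7% held at least 1 GC box and 10.7% held 3 or more. Bases G and C made up 74.3% of the window, against a median of 52.7% over all promoters, and 4.44% of promoters were at least as rich. Searched on both strands, the window held no match to an E-box (CACGTG, in 7.15% of promoters), a sterol response element (TCACNCCAC, 1.24%), a cyclic AMP response element (TGACGTCA, 1.79%), a CCAAT box (CCAAT, 37.4%), a TATA box (TATAAA, 13.6%), a nuclear receptor half-site (AGGTCA, 16.3%), a NR4A site (AAAGGTCA, 1.51%, which holds the half-site), a FOXO site (GTAAACA, 3.65%) or a D-box (TTATGTAA, 0.938%). The absence of a match says only that these letters are not in this window.

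Chrna4 RNA was most abundant in lean livers of both genotypes and least abundant in RvE1-treated obese KO livers. Its level is given as a normalized count, the reads on the gene divided by a size factor of the library, here over all 42 libraries so that the 6 groups stand on 1 scale. WT lean livers had the highest level, with a lowest value of 58.5, a median of 330 and a highest of 943. KO lean livers followed, from 44.9 through a median of 107 to 170. The 4 obese groups lay below both lean groups in their medians. WT obese livers ran from 10.6 to 32.3 with a median of 18.9, and KO obese livers from 3.06 to 82.3 with a median of 20.5. WT obese+RvE1 livers ran from 4.06 to 147 with a median of 11.6, and KO obese+RvE1 livers from 0 to 57.0 with a median of 2.63. The order of the medians was thus WT lean, KO lean, KO obese and WT obese with vehicle, then WT and KO obese mice given RvE1, and the ranges of each neighbouring pair in this order overlapped. KO lean and KO obese, the pair across the diets, overlapped through 1 KO obese mouse. In the KO obese+RvE1 group 2 mice, 12L and 12RL, had 0 reads, which allows up to 3 reads or 4.29 and 3.38 normalized counts. The 42 libraries held between 15992525 and 43841120 reads on listed genes, and within groups Chrna4 did not track that depth (Pearson r = -0.08, permutation p = 0.677; Spearman rho = -0.15, permutation p = 0.362).

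**Figure D1:**
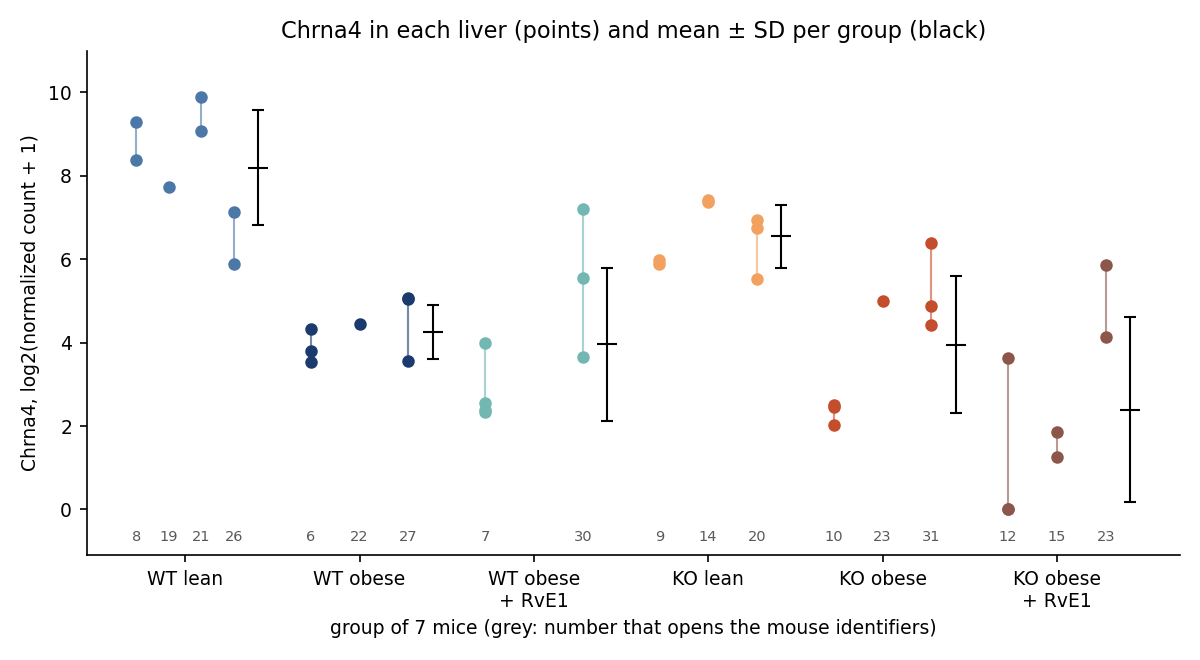
Chrna4 in 42 livers as log2(normalized count + 1), normalized over all libraries, with 1 point per mouse. Points on 1 vertical line come from mice whose identifiers open with the same number (grey), and black bars give the mean ± SD of each group. Both lean groups sit highest, WT lean between 5.89 and 9.88, and both mice at 0 belong to the KO obese+RvE1 group.

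The fall that led to the choice of Chrna4 was as follows. On the scale of the WT table, WT lean livers ran from 52.2 through a median of 295 to 845, and WT obese livers from 9.38 through 16.8 to 29.0. All 7 WT obese values lay below the lowest WT lean value. The log2 fold change (Log2FC), taken throughout on log2(normalized count + 1) and so understated where counts are low, was -3.94 (SE 0.50), or 15.3-fold lower. By this change Chrna4 ranked 2 among 215 genes called lower out of 14012 tested, between Lepr, the leptin receptor, at -3.96 and Fabp5, a fatty acid binding protein, at -3.92. A high rank and a call follow from the choice and are given only as a description. A call needed a Benjamini-Hochberg adjusted p under 0.1 together with more than a 1.5-fold change, which 1.53% of tested genes met as lower and 2.26% as higher in WT obese mice.

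Whether the high fat diet also lowered Chrna4 without ChemR23 was tested in KO mice, none of which entered the choice. Chrna4 fell in KO obese livers. KO lean livers ran from 46.0 through a median of 109 to 172 on the scale of their table, and KO obese livers from 3.10 through 21.1 to 83.5. Of 7 KO obese values 6 lay below the lowest KO lean value, and mouse 31N, with 83.5, lay among the KO lean mice. The Log2FC was -2.60 (SE 0.59), 6.08-fold lower, with an adjusted p of 0.0121 in limma, in a table where 5.42% of 14213 genes were called lower and 4.97% higher. An exact permutation test of the same 14 log2 values, two-sided, gave p = 0.00233 (0.00466 after adjustment over the 4 Chrna4 comparisons tested). Both tests took the 14 mice as independent, although levels differed between identifier numbers and KO lean and KO obese mice shared none. These p-values may therefore be too small. Without the 3 KO obese mice of identifier number 10, which had 3.10 to 4.76, the change was -1.38 (SE 0.41, adjusted p = 0.0589), and without the 3 mice of number 31 it was -3.56 (adjusted p = 0.0180). The KO change was smaller in size than the WT change by 1.34 on the log2 scale, a difference that was not tested because the WT mice had chosen the gene.

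RvE1 was compared with vehicle in obese mice of each genotype. In KO mice the level was lower with RvE1 but within the spread of the mice. On the scale of that table KO obese livers ran from 3.13 through a median of 21.2 to 84.3, and KO obese+RvE1 livers from 0 through 2.71 to 58.7. Of 7 KO obese+RvE1 values 4 lay below the lowest KO obese value. The Log2FC of -1.57 (SE 0.92) did not pass (adjusted p = 0.623 in limma; exact permutation p = 0.161, 0.171 after adjustment over 4). In this table limma called 0% of 14207 genes in either direction, with 1179 genes at an unadjusted p under 0.05, while edgeR called 0 and DESeq2 14. In WT mice, WT obese livers ran from 10.9996 through 19.8 to 34.0 and WT obese+RvE1 livers from 4.25 through 12.2 to 153, a Log2FC of -0.30 (SE 0.65) whose sign turned with the method, to 0.69 in edgeR and 0.73 in DESeq2. Of the 7 WT obese+RvE1 mice 3 lay below all WT obese mice and 2 above all of them, mouse 30RL at 153 and mouse 30L at 47.9. The 3 low mice, 7-2L, 7RL and 7R, share identifier number 7 and both high mice share number 30, and no WT obese mouse has either number. Mouse 7L at 15.7 and mouse 30R at 12.2 lay within the WT obese range. In that table limma called 0% of 13085 genes in either direction (795 at an unadjusted p under 0.05), edgeR 1 gene and DESeq2 15. The RvE1 change in KO mice differed from that in WT mice by -1.27 on the log2 scale, which was not tested.

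Against lean controls of their genotype, RvE1-treated obese mice of both genotypes had lower medians. Chrna4 fell in KO obese+RvE1 livers, which ran from 0 to 57.0 on the scale over 42 libraries, relative to KO lean livers at 44.9 to 170. Of 7 treated values 6 lay below every KO lean value, the exception being mouse 23-2L at 57.0. The Log2FC was -4.16 (SE 0.77, adjusted p = 0.000836 in limma fitted over all 42 libraries; exact permutation p = 0.00117, 0.00466 after adjustment over 4), where 4.27% of 12742 genes were called lower and 3.39% higher. Because 2 mice had 0 reads, this size depends on the constant added before the logarithm, and a constant of 4 gave -3.05. This comparison shares its KO lean mice with the KO diet comparison above. Its groups likewise shared no identifier number, and both tests took mice as independent, so these p-values too may be too small. WT obese+RvE1 livers differed from WT lean livers by -4.24 (SE 0.77), with 6 of 7 below the lowest WT lean value, given with no test.

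The genotypes were compared within each diet and treatment. KO lean livers, at 41.9 to 156 with a median of 98.6 on the scale of their table, had lower values than WT lean livers, at 54.4 to 876 with a median of 307. The log2 difference was -1.65 (SE 0.51), 2 of 7 KO lean mice lay below all WT lean mice and 5 of 7 WT lean mice lay above all KO lean mice, with no test because of the WT lean mice. That table had 3.94% of 13031 genes called higher and 2.7% called lower in KO lean mice. Among vehicle-treated obese mice, KO livers ran from 3.00 to 80.5 and WT livers from 10.3 to 32.02, and the KO range enclosed the WT range. The log2 difference of -0.30 (SE 0.59) turned to 0.36 in edgeR and 0.34 in DESeq2, and 0.00706% of 14162 genes were called in each direction. Among RvE1-treated obese mice, neither genotype of which had entered the choice, the log2 difference was -1.56 (SE 0.77). It did not pass in limma (adjusted p = 0.995, unadjusted p = 0.0497) nor in the exact permutation test (p = 0.171), and 0% of genes were called higher and 0.00785% lower there. Cmklr1, which encodes ChemR23, was lower in the mice labelled KO, with no overlap: 9.72 to 22.6 normalized counts in KO lean against 40.8 to 114 in WT lean livers and 5.08 to 23.2 in KO obese against 33.3 to 102 in WT obese livers.

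Markers of other cell types moved with some of these groups. Of 7 Kupffer cell markers 6 were listed in all tables. Their summed level on the scale over 42 libraries ran from 7992 to 17164 in KO lean livers, above WT lean livers at 3249 to 7317 and KO obese livers at 4387 to 5861, and 6 of 6 were called higher in KO lean than WT lean mice (3.94% of all genes) and 5 of 6 lower in KO obese than KO lean mice (5.42% of all genes). In KO obese+RvE1 livers the sum ran from 3700 to 9849, and 5 of 6 were called lower than in KO lean livers (4.27% of all genes), namely Clec4f, Vsig4, Cd5l, Timd4 and C1qa, as was the endothelial Clec4g, 1 of 7 endothelial markers. In WT obese against WT lean mice 0 of 6 were called in either direction. Of 15 neuron and Schwann cell markers 3 were listed in all tables, with a summed level of 71.7 to 143 in WT lean and 73.9 to 201.0 in KO lean livers, while in the fullest table the neuronal Nefl and Nefm had 0 reads in all WT obese livers and the glial Sox10 a mean of 0.176. All 8 hepatocyte markers were listed in all tables and none was called in the diet or genotype comparisons of vehicle-treated mice. Among mice of 1 group Chrna4 had a median Pearson r of -0.05 with the 6 Kupffer markers and -0.19 with the 3 neural markers, against -0.02 over all genes. Of 6 lymphocyte markers tested 4 were called lower in KO obese than KO lean mice, where 5.42% of all genes were. The part of these cells in the Chrna4 values was not tested.

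Chrna4 varied more between mice of 1 group than nearly all other genes. Its within-group SD was 1.52 on the log2 scale, against a median of 0.316 over 12742 genes, and 25 genes had a larger one. Levels also differed between mice whose identifiers open with different numbers. In WT lean livers both mice of number 21 had 542 and 943 and both of number 26 had 58.5 and 139. In KO lean livers the pair of number 14 had 164 and 170 and the pair of number 9 had 58.0 and 62.5, and in KO obese livers the 3 mice of number 10 had 3.06 to 4.68. Other sets were wide, with 11.6 to 147 for number 30, 20.5 to 82.3 for number 31, 44.9 to 122 for number 20 and 0 to 11.5 for number 12. The number accounted for 69.6% of the within-group sum of squares of Chrna4, against a median of 47.6% over all genes, with 10.1% of genes at or above Chrna4. The labels do not say what the number is, and number 23 is the one that occurs in more than 1 group, with 30.8 in the KO obese mouse and 16.7 and 57.0 in both KO obese+RvE1 mice.

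Of the other nicotinic subunits, Chrna2 was also called lower by diet in both genotypes, and Chrnb1 and Chrnb2 did not pass. Of the 15 other subunits 3 reached the tests, Chrna2, Chrnb1 and Chrnb2. Per kilobase of exon, on the scale over 42 libraries, the median level in WT lean livers was 186 for Chrna2 (α2), 65.7 for Chrna4, 10.5 for Chrnb2 (β2, the usual partner of α4) and 6.08 for Chrnb1 (β1, of the muscle receptor). In KO obese+RvE1 livers the order was Chrna2 at 103, Chrnb2 at 9.10, Chrnb1 at 5.65 and Chrna4 at 0.524. Chrna4 was likewise the lowest of the 4 in the other obese groups, with 3.77 in WT obese, 2.31 in WT obese+RvE1 and 4.08 in KO obese livers, and came after Chrna2 in KO lean livers, with 21.3. A further 9 subunits, Chrna1, Chrna3, Chrna7, Chrna9, Chrna10, Chrnb3, Chrnb4, Chrne and Chrng, were listed in the table of the KO obese vs WT obese comparison alone, where none had a group mean above 2.10 normalized counts and Chrnb4 was listed at 0 in every KO obese liver.

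Chrna2 (ENSMUSG00000022041) lies on chromosome 14 from 66135039 to 66152948 on the plus strand, 10539 bases from Ephx2. It fell in KO obese livers, which ran from 277 through a median of 334 to 419 normalized counts against 438 through 990 to 1843 in KO lean livers. All 7 KO obese values lay below all KO lean values, with a Log2FC of -1.34 (SE 0.26, adjusted p = 0.00601 in limma). In WT mice it fell from 392 to 1511 in lean livers to 236 to 393 in obese livers, with 6 of 7 obese values below the lean range and a Log2FC of -1.08 (SE 0.23, adjusted p = 0.0151). It was also lower in KO obese+RvE1 than KO lean livers (Log2FC -1.18, SE 0.26, adjusted p = 0.00455). Each of these 3 calls held with each mouse left out in turn and with a random block for identifier number, the highest adjusted p being 0.0567. Between KO lean and WT lean livers Chrna2 did not pass (log2 difference 0.18, SE 0.33, adjusted p = 0.764). Within groups it had a Pearson r of -0.28 with Chrna4. Chrnb2 differed between KO obese and KO lean livers by 0.44 (SE 0.20, adjusted p = 0.149) and between WT obese and WT lean livers by 0.09 (SE 0.18, adjusted p = 0.824). Chrnb1 differed by -0.48 (SE 0.30, adjusted p = 0.289) and -0.12 (SE 0.42, adjusted p = 0.916).

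**Figure D2:**
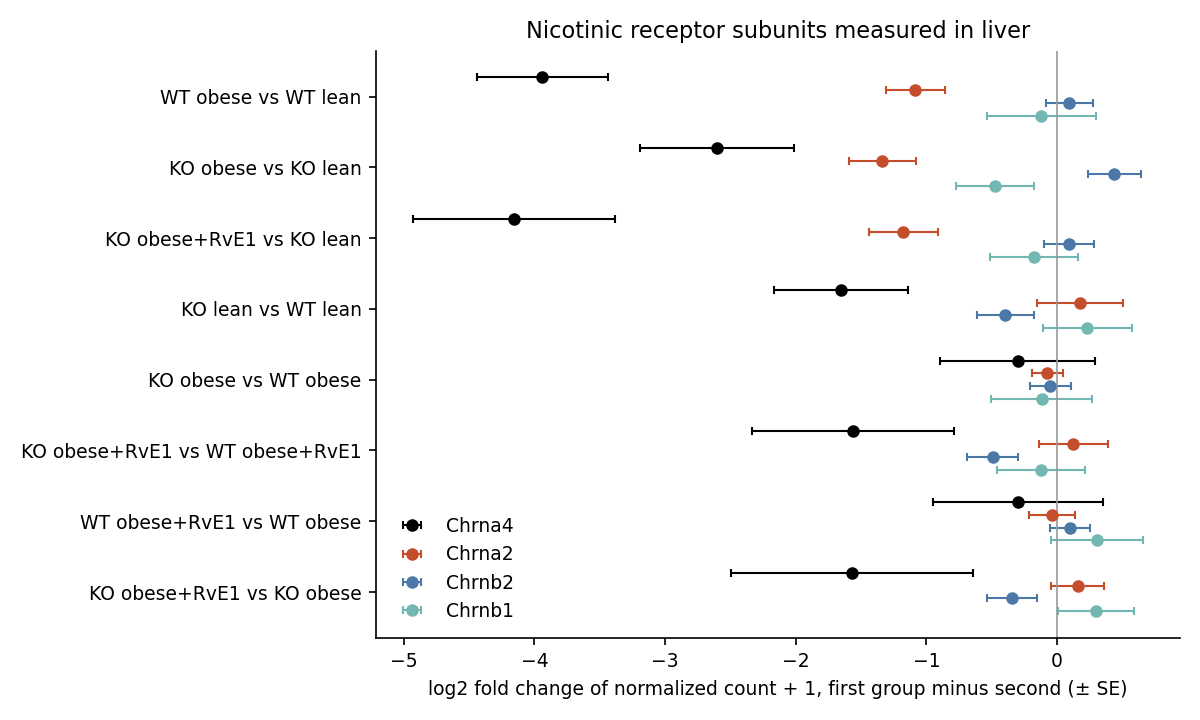
Log2FC values of log2(normalized count + 1) with SE bars for the 4 nicotinic subunits that reached the tests, in 8 comparisons of 7 against 7 mice. In the upper 3 comparisons, of obese with lean mice, Chrna4 lies between -4.16 and -2.60, Chrna2 between -1.34 and -1.08, and Chrnb2 and Chrnb1 between -0.48 and 0.44.

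In the wider cholinergic and choline lists few genes were called by diet, in both directions. Besides Chrna4 they held 53 genes, of which 25 were tested in WT obese vs WT lean mice, where 2 were called higher and 2 lower (2.26% and 1.53% of all genes) with a median Log2FC of 0.03 (0.00 over all genes). In KO obese vs KO lean mice 3 of 26 were called higher and 2 lower (4.97% and 5.42% of all genes), with a median of -0.13 (0.00 over all genes), and with a random block for identifier number 1 in each direction. In KO lean vs WT lean mice 1 of 24 was called higher (3.94% of all genes), and in the obese genotype and both RvE1 comparisons 0 of 25 were called in each.

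The muscarinic receptors are the G protein-coupled family that acetylcholine also activates, and in obese mice Chrm1 was called higher in both genotypes and Chrm3 in KO mice. Chrm1 (M1) had 0 to 4.68 normalized counts in WT lean and 7.96 to 17.4 in WT obese livers, with no overlap (Log2FC 2.49, SE 0.41, adjusted p = 0.00335). It rose in KO obese livers too, from 0 to 10.6 in KO lean to 7.91 to 18.6 (Log2FC 1.37, SE 0.45, adjusted p = 0.0497), a call that ended with a random block for identifier number (adjusted p = 0.149) and without the mice of number 10, 20 or 31 (adjusted p up to 0.184). These are counts of a few reads per library. Chrm3 (M3) rose from 6.04 to 26.4 in KO lean to 10.5 to 98.1 in KO obese livers (Log2FC 1.36, SE 0.46, adjusted p = 0.0569). That call ended without mouse 10R, 10RL, 14RL or 20L (adjusted p between 0.109 and 0.115) and with the random block (adjusted p = 0.167). It also ended without the mice of number 10, 14 or 20 (adjusted p up to 0.419). In KO obese+RvE1 against KO lean livers Chrm3 was higher by 2.10 (SE 0.47, adjusted p = 0.00455), with all 7 treated mice above the KO lean range. In WT obese against WT lean livers the difference of Chrm3 was 0.42 (SE 0.41, adjusted p = 0.636). The cholinesterases Ache and Bche did not pass by diet, and Bche, which is made in hepatocytes, had 4512 to 6995 normalized counts in WT lean and 5036 to 10077 in WT obese livers.

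Among genes of choline use, Chka, a choline kinase of the first step to phosphatidylcholine, had 532 to 1996 normalized counts in WT lean and 225 to 611 in WT obese livers (Log2FC -1.60, SE 0.30, adjusted p = 0.00718). In KO mice its difference was -0.32 (SE 0.28, adjusted p = 0.478). Chpt1, the enzyme of the last step, rose in WT obese livers from 3062 to 5507 to 5434 to 9636 (Log2FC 0.85, SE 0.16, adjusted p = 0.00717). In KO obese livers Chpt1 was higher by 0.59 (SE 0.16, adjusted p = 0.0256), just past the fold limit, and fell short of it without any 1 of 7 mice (10R, 10RL, 14-2L, 20R, 31L, 9L or 9RL; 0.52 to 0.57). This call also ended in edgeR and in DESeq2 and without the mice of number 9, 10, 14 or 31. Chkb, the other choline kinase, was lower in KO obese livers by 0.64 (Log2FC -0.64, SE 0.20, adjusted p = 0.0375), a call that ended without mouse 31R or 9RL (-0.58 and -0.54), without the mice of number 9 or 31, and with the random block (adjusted p = 0.112).

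Mice with more Chrna4 than their group also had more of the enzymes of sterol and fatty acid synthesis. Likeness was measured as the Pearson r of the differences of each mouse from the mean of its own group of 7 on the log2 scale, over 42 mice and 12741 other genes, so that no difference between groups entered. The highest r belonged to Fdps, which makes farnesyl diphosphate for cholesterol (r = 0.89), followed by Acss2, which makes acetyl-CoA from acetate (r = 0.87), and by Dhcr7 and Nsdhl, both of late cholesterol synthesis (r = 0.84 for each). Fasn, the fatty acid synthase, had 0.79 and Acaca, which makes malonyl-CoA, 0.78. All 6 had an adjusted p of 0.00463 or less by permutation within groups. The smallest adjusted p, 0.00327, belonged to the 39 genes at the lowest unadjusted p that 100000 permutations can give. Spearman rho ran from 0.63 for Acaca to 0.86 for Acss2 (adjusted p at most 0.0262). The lowest r belonged to Tmem39a, a membrane protein of the endoplasmic reticulum (r = -0.71, rho = -0.61), Stx5a, a syntaxin of transport to the Golgi (r = -0.71, rho = -0.60), and Preb, a factor of vesicle budding from the endoplasmic reticulum (r = -0.68, rho = -0.61), each with an adjusted p of 0.00463 or less for r and of 0.0490 or less for rho. At an adjusted p under 0.1, 267 genes (2.1% of 12741) had a positive and 215 (1.69%) a negative r. Permutation within groups took the mice of a group as independent, although Chrna4 levels differed between identifier numbers. These p-values may therefore be too small.

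Without mice 21L and 8R, whose Chrna4 levels lay farthest from the median, r was 0.89 for Fdps, 0.86 for Acss2, 0.84 for Dhcr7 and Nsdhl and -0.68 for Preb. Without mice 23-2L and 30RL, which lay farthest from their own group means, r was lower, at 0.84 for Fdps, 0.81 for Acss2, 0.77 for Dhcr7, 0.79 for Nsdhl and -0.57 for Preb. Within single groups of 7, r with Fdps ran from 0.60 to 0.97 (exact permutation p between 0.000397 and 0.165) and r with Acss2 from 0.76 to 0.94 (exact p between 0.000397 and 0.0621). The ranges reached lower for Nsdhl (from 0.63), Fasn (from 0.36), Acaca (from 0.26) and Dhcr7, which had 0.24 and a rho of 0.04 in KO lean mice (exact permutation p = 0.611 for r). All 6 positive genes had a positive r in 6 of 6 groups. The 3 negative genes had a negative r in 6 of 6 groups, but in KO obese mice Stx5a had r = -0.03 (exact permutation p = 0.963) and a rho of 0.14. Of the 54 values, 32 passed an adjusted p of 0.1 over the 54. These genes had been picked by r over the same mice. Their shared signs and passes within groups follow in part from that choice and are a description. Relative to the mean of mice of the same group and identifier number, r was 0.83 for Fdps and 0.78 for Acss2 (adjusted p = 0.0849 for each), while the other 7 genes no longer passed, with r of 0.73 for Dhcr7, 0.62 for Nsdhl and -0.36 for Tmem39a (adjusted p between 0.127 and 1). This setting kept 18 sets of 1 to 4 mice, and 3 genes in all passed.

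**Figure D3:**
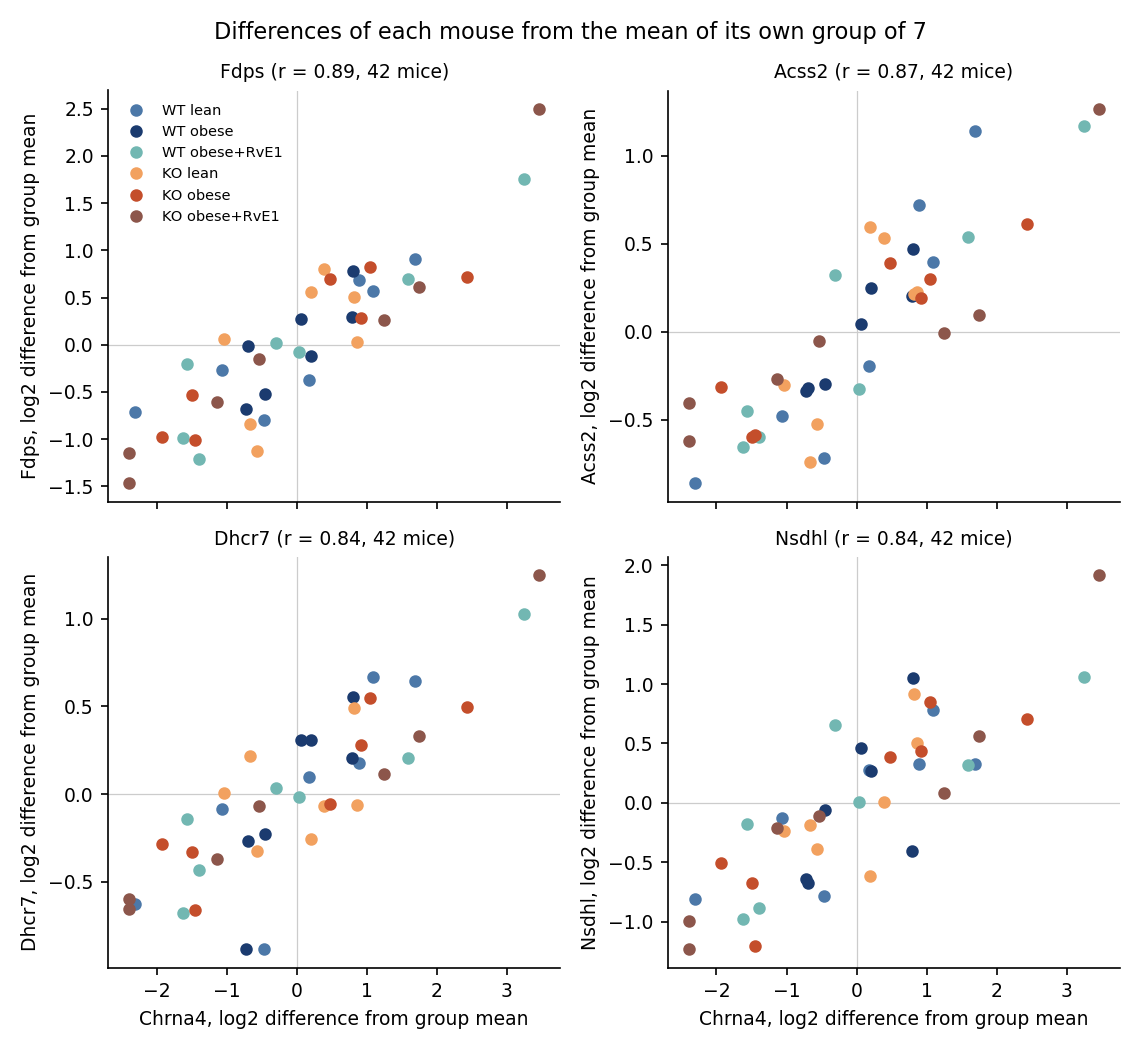
Difference of each of 42 mice from the mean of its own group, as log2(normalized count + 1), for Chrna4 (horizontal) against Fdps, Acss2, Dhcr7 and Nsdhl (vertical), coloured by group. The points rise together over all 42 mice, with mice 23-2L and 30RL at the upper right, and r within KO lean mice is lowest for Dhcr7, at 0.24.

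Within the 14 mice of each table, with group means removed and the authors' scale of that table, different genes led. The highest r belonged to Acss2 in the WT diet table (r = 0.92), Ttll7 in the KO diet table (0.93), 1600016N20Rik in the table of the lean genotypes (0.89), Idi1, a sterol synthesis enzyme, in the table of the obese genotypes (0.94), Psph, an enzyme of serine synthesis, in the WT RvE1 table (0.94) and Fdps in the KO RvE1 table (0.95). With 14 mice only the last 2 of these passed, with an adjusted p of 0.0163 for Psph and 0.0129 for Fdps over all genes of the table, and the others had adjusted p between 0.178 and 1. Many other genes passed with them, 1326 of 13064 in the WT RvE1 table and 926 of 14185 in the KO RvE1 table, against 0 in each other table. These tables share groups of mice. Over the 6 tables r with Fdps ran from 0.73 to 0.95 and r with Acss2 from 0.81 to 0.94.

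The lipogenic and sterol synthesis lists had the highest median r among the lists examined. Of 17 lipogenic genes measured, all had a positive r with a median of 0.68 against -0.02 over all genes, and 15 passed an adjusted p of 0.1, among them Elovl5 (0.77), Elovl6 (0.77), Acly (0.74), Scd1 (0.72) and Srebf1, the transcription factor of these enzymes (0.59). A list of 19 sterol synthesis enzymes, written after the leading genes had been seen, had a median of 0.70 and ran from 0.27 to 0.89. It holds Fdps, Dhcr7 and Nsdhl, as the lipogenic list holds Acss2, Fasn and Acaca, and is given as a description. The 3 measured nicotinic subunits had a median of 0.12 and 0 of 3 passed, and of 14 genes of choline use 1 passed, Bhmt2 (r = 0.45). Of 16 clock genes, with a median of 0.20, 1 passed, Bhlhe40 (r = 0.50), and of 11 fasting and feeding genes, with a median of 0.22, 0 passed. Of all cell type markers 1 passed, the endothelial Lyve1 (r = 0.62), among 7 endothelial markers with a median of 0.02. Relative to the mean of mice of the same group and identifier number, the lipogenic and sterol synthesis medians were both 0.54. In that setting, where few of all genes passed as given above, r was 0.09 for Bhmt2, 0.29 for Bhlhe40 and 0.55 for Lyve1.

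**Figure D4:**
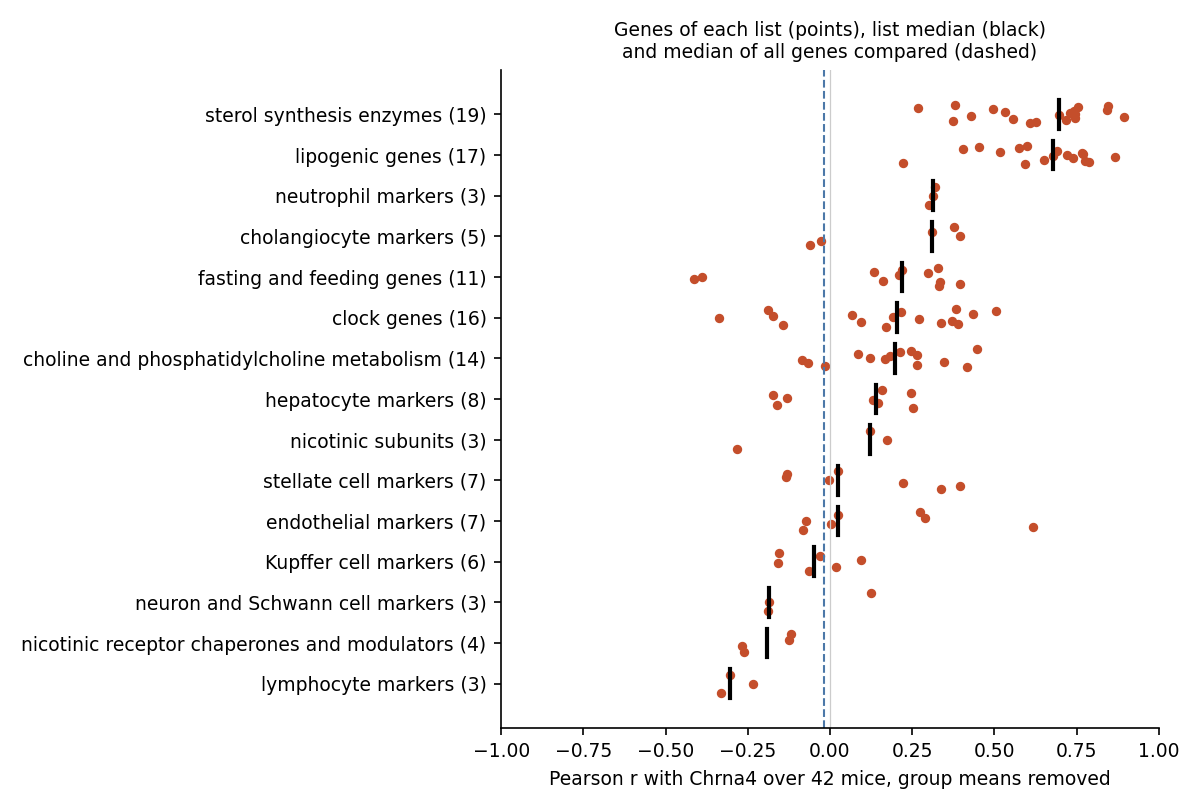
Pearson r with Chrna4 over 42 mice with group means removed, for each gene (points) of the lists with at least 3 measured genes, with the number measured in parentheses, the list median in black and the median of all genes, -0.02, dashed. Lipogenic and sterol synthesis genes sit apart at medians of 0.68 and 0.70, and all other lists have medians between -0.30 and 0.31.

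The diet differences of the 6 genes with the highest r to Chrna4 within groups were smaller in value than that of Chrna4 and mostly did not pass. Fdps differed between KO obese and KO lean livers by -0.32 (SE 0.36, adjusted p = 0.570), Dhcr7 by -0.10 (SE 0.19, adjusted p = 0.756), Nsdhl by -0.20 (SE 0.31, adjusted p = 0.704) and Acss2 by -0.52 (SE 0.24, adjusted p = 0.145). Fasn and Acaca had values of the opposite sign, 0.76 (SE 0.40, adjusted p = 0.206) and 0.27 (SE 0.20, adjusted p = 0.381). In KO lean against WT lean livers Fasn (-1.25, SE 0.29, adjusted p = 0.0357) and Acaca (-0.91, SE 0.17, adjusted p = 0.0302) were called lower. In WT mice Acss2 was called lower in obese livers (Log2FC -0.97, SE 0.28, adjusted p = 0.0663), while Fdps (-0.40, SE 0.29), Dhcr7 (0.02, SE 0.26) and Nsdhl (-0.37, SE 0.29) did not pass. Of 17 lipogenic genes 6 were called lower and 2 higher in WT obese mice (1.53% and 2.26% of all genes) and 2 lower and 2 higher in KO obese mice (5.42% and 4.97% of all genes). In KO obese+RvE1 against KO lean livers Fdps (-1.18, SE 0.45, adjusted p = 0.0770) and Acss2 (-0.81, SE 0.30, adjusted p = 0.0684) were called lower. Scd1 and Elovl6, named above, had larger differences in WT obese+RvE1 against WT lean livers, which differ in both diet and RvE1. Scd1 (-2.18, SE 0.52, adjusted p = 0.00633 in limma) and Elovl6 (-1.95, SE 0.38, adjusted p = 0.000717) were called lower there. Limma called 702 of 12742 genes in either direction in that comparison. Acss2 (-1.04, SE 0.30, adjusted p = 0.0223) and Acaca (-0.82, SE 0.26, adjusted p = 0.0390) were also called lower, while Fdps, Dhcr7, Nsdhl and Fasn were not called. Elovl5 (-0.61, SE 0.24), Acly (-0.47, SE 0.38) and Srebf1 (0.53, SE 0.34) were not called there.

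Genes beside Chrna4 on chromosome 2 were compared in the same tables. Col20a1, a collagen gene on the opposite strand that ends 17 bases from Chrna4, differed between KO obese and KO lean livers by 0.21 (adjusted p = 0.619) and between WT obese and WT lean livers by -0.44 (adjusted p = 0.446), and was called lower in KO lean than WT lean livers (log2 difference -0.67, adjusted p = 0.0584). Arfgap1, 35854 bases away, differed in KO mice by -0.34 (adjusted p = 0.0711), short of the fold limit, and Ppdpf, 143701 bases away on the other side, by -0.34 (adjusted p = 0.0840). Nkain4, 63681 bases away and listed in 3 tables, was called lower in KO obese livers (Log2FC -1.32, adjusted p = 0.0189), with -1.09 (adjusted p = 0.261) in WT mice. Eef1a2, 104107 bases away on the other side, was listed in 1 table and did not reach the tests.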

How the data were processed

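Liver RNA of 42 mice was sequenced. The authors aligned reads to mm10 with Bowtie2 and counted pairs with both ends mapped in featureCounts; for their versions, the annotation and strandedness: not given in the sources used here. Deposited were 6 tables of 14 mice each, with counts divided by DESeq2 size factors set per table (signal). Columns with log2 fold changes by the authors, an SE (a score) and p-values were not used. Whole reads were recovered for 100% of values within 0.1 reads. Log2(normalized count + 1) was fitted with limma 3.58.1 (R 4.3.3, trend) for genes with a mean of at least 5. Groups from different tables were compared on recovered reads of 12742 genes, scaled over 42 libraries. Alternatives used edgeR 4.0.16, DESeq2 1.42.0, other constants and filters, mice left out and the identifier number as a random block. The limma fit and the likeness measure were tested on simulated data. The gene and all lists were chosen with earlier results of these data known; the sterol list and the leaving out of identifier numbers were added after values were seen. Named genes were Chrna4, called or measured members of the cholinergic and choline lists, the 6 highest and 3 lowest r, and adjacent genes. The p-values measure the spread between mice. Some genes are not reported here.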

Additional observations from a re-analysis of the deposited data

Results flagged for a closer look

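In 3 groups 1 mouse had a Chrna4 level far above the other 6, measured as its gap to the next mouse over the range of the group and set against Dixon's critical value for 7 mice. In WT obese+RvE1 livers mouse 30RL had 147 normalized counts on the scale over 42 libraries, with a gap of 0.707 to the next value of 45.9. In KO obese livers mouse 31N had 82.3, with a gap of 0.649 to 30.8. In KO obese+RvE1 livers mouse 23-2L had 57.0, with a gap of 0.707 to 16.7. On the log2 scale the gaps were 0.340, 0.318 and 0.292, all under the critical value. Chance flags about 1 in 20 groups where values are normally distributed. These counts were skewed, with a mean of 33.2 and a median of 11.6 in WT obese+RvE1 livers, so that rate may not hold here.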

How the results depend on the processing

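Chrna4 kept its direction and its side of the threshold in each of the 4 tested comparisons under each alternative run. With 1 mouse left out its log2 fold change ran from -3.01 to -2.28 for KO obese vs KO lean, from -2.15 to -1.17 for KO obese+RvE1 vs KO obese, from -4.74 to -3.76 for KO obese+RvE1 vs KO lean and from -2.14 to -1.02 for KO obese+RvE1 vs WT obese+RvE1. Of the cholinergic and choline genes, the identifier number as a random block left 1 higher and 1 lower in KO obese vs KO lean mice (3 and 2 without it) and 0 higher in KO lean vs WT lean mice (1 without it), where edgeR and DESeq2 each called 1 lower (limma 0). The 482 genes called like Chrna4 became 3 relative to mice of the same group and number, 110 by Spearman rho, and 1239 without WT lean, 137 without WT obese+RvE1, 744 without KO lean, 267 without KO obese and 139 without KO obese+RvE1 mice. The share of Chrna4 variation between numbers was 71.1% with a constant of 4. The causes of these shifts were not tested. Low reads limit the obese groups, where 2 mice had 0. No paired analysis was possible because the groups compared share at most 1 identifier number, 23, in KO obese and KO obese+RvE1 mice; the block above uses the number that opens each identifier.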
